A study of Mus musculus with 11 samples.

Results

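The 9 genes Insr, Irs1, Irs2, Pik3r1, Akt1, Akt2, Slc2a4, Slc2a1 and Tbc1d4 are the core of insulin signalling and glucose transport, and they were taken by name from the 15453 genes measured in epididymal white adipose tissue (eWAT). The tissue came from 11 male C57BL/6 mice, 16 weeks old, that had received a high fat diet from 8 weeks of age. There were 6 wildtype (WT) mice and 5 Mest pKO mice, which are Mest+/- and inherited the inactivated allele of the imprinted gene mesoderm specific transcript (Mest) from their father. Exon 3 of Mest had been removed in the germline after a cross with EIIa-cre mice, so the loss was not limited to fat. Both genotypes were littermates from WT females and males carrying the mutated allele, and the mice were picked from a larger diet cohort in which pKO mice gained less fat. Expression was read by SAGE (serial analysis of gene expression). In this method cDNA made from poly(A) RNA is cut with NlaIII and each transcript is read as a short tag next to its cut site nearest the 3′ end. The comparison asks how the expression of these genes in expanded fat differs between the genotypes. The paper reports a lower adiposity index in the chosen pKO mice, so genotype and fat mass cannot be told apart here.

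Insulin binds a receptor tyrosine kinase encoded by Insr, which phosphorylates the adaptor proteins encoded by Irs1 and Irs2. These recruit phosphoinositide 3-kinase through its regulatory subunit p85α, the product of Pik3r1, and the lipid it makes brings the kinases Akt1 and Akt2 to the membrane. Akt phosphorylates AS160, the Rab GTPase-activating protein encoded by Tbc1d4, and this releases vesicles that carry the glucose transporter GLUT4 (Slc2a4) to the surface of adipocytes. GLUT1 (Slc2a1) carries basal glucose uptake in most cells. Akt2 is the isoform with the larger known role in insulin-stimulated glucose uptake in fat, and Irs1 is the main adaptor of adipocytes.

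The tags that stand for the 9 genes are shown because each measured level is a count of these short stretches, and paralogs such as Akt1 and Akt2 can be told apart only where the stretches differ. They were read from the GRCm38 genome and the GENCODE M21 annotation as the 27 bases from the NlaIII site nearest the 3′ end of the coding transcript with a RefSeq match, written 5′ to 3′ with the NlaIII site in capitals. They are the tags predicted by the annotation and were not read from the libraries.
Insr: CATGtataatacaggctaattacttgt
Irs1: CATGgtctatgttgctaccaaaacatt
Irs2: CATGgatgccctccttaatagccatat
Pik3r1: CATGgtcggttgtaattttgcctttac
Pik3r1, shorter transcript: CATGgtgcttgttaacgctttctgaag
Akt1: CATGtcgttttttacaacattcagctt
Akt2: CATGggcgtgtaccttccatcactaag
Akt2, shorter transcript: CATGtctctccctcctcaatagctctg
Slc2a4: CATGtacccctcattccccctgtgtga
Slc2a1: CATGgctgtgaccgtccagtggctggg
Tbc1d4: CATGgaaacgtgcggatgaacagcatc

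Each of the 9 main tags lies in the last exon, within the 3′ UTR, and no other gene in the annotation has the same 27 bases in its transcripts. On the minus strand lie the tags of Insr (chr8:3150958-3150984, exon 21), Irs1 (chr1:82233308-82233334, exon 2), Irs2 (chr8:10984715-10984741, exon 2), Pik3r1 (chr13:101680908-101680934, exon 16), Akt1 (chr12:112653888-112653914, exon 14), Slc2a4 (chr11:69943199-69943225, exon 11) and Tbc1d4 (chr14:101443047-101443073, exon 19). The plus strand holds those of Akt2 (chr7:27640750-27640776, exon 14) and Slc2a1 (chr4:119137397-119137423, exon 10). The tags start between 61 bases (Irs2) and 714 bases (Tbc1d4) before the end of their transcripts. Pik3r1 and Akt2 each have 2 coding RefSeq transcripts with different 3′ ends, whose tags the deposited gene values do not separate. The tags of Irs1 and Slc2a1 also lie within gene models of the opposite strand, Gm9747 and Gm12868, and the levels of Irs1 and Slc2a1 are uncertain to the extent that tags were not assigned by strand.

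Values are normalized tags, that is, the tag counts of a library over its size factor. Because a transcript gives 1 tag whatever its length, transcript length does not enter their comparison between genes. Other differences between genes in how tags are recovered or mapped were not tested. The 6 WT libraries held between 9659740 and 14825727 tags and the 5 pKO libraries between 11320342 and 14626803. Each library is 1 mouse, and every pair of the same genotype differed by more than sampling noise. Mest had 25107 ± 2672 normalized tags in the WT mice (SD, n = 6) and 1663 ± 566 in the pKO mice (SD, n = 5), and the genotypes did not overlap. A SAGE tag comes from the 3′ end, outside the removed exon 3, so it checks the amount of transcript and not the deletion. Of the adipocyte markers, 14 of 14 were measured at a mean of at least 50 and their summed level ranged from 809197 to 1230877 in WT and from 878139 to 1222843 in pKO mice. The most abundant of the 14 averaged 655817 in WT and 698530 in pKO mice, so the sum mostly follows that gene. Of 8 epididymis markers 3 were in the files and none reached a mean of 50. Of 10 skeletal muscle markers 8 were in the files and 2 reached that mean. Muscle transcripts were nevertheless present, as the most abundant, Myl1, averaged 2042 (WT) and 2483 (pKO). Summed per mouse, the 8 muscle markers lay between 1919 and 2417 for WT, and between 1878 and 3592 for pKO. The part of muscle in the level of Slc2a4 was not tested. In bulk tissue, fewer cells of a type and less RNA per cell cannot be told apart.

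Among the 9 genes, Slc2a4 and Tbc1d4 were higher and Akt1 was lower in pKO than in WT mice at an unadjusted p of at most 0.05 in limma on log2(value + 1). The receptor, both adaptors, Pik3r1, Akt2 and Slc2a1 did not pass. Counts were limited to genes averaging 50 or more in a genotype, a limit of the study that 8 of the 9 genes met and Irs2 did not. The 3 counted genes of 8 compare with 1052 of 9906 genes with that mean over the whole table, a share of 10.6%, of which 480 were higher (4.85%) and 572 lower (5.77%) in pKO mice. Scaled by total tags in place of size factors, 330 genes were higher and 726 lower, and the 3 genes kept their directions, with Tbc1d4 at a limma p of 0.052 over all 11 mice. None of the 9 had a limma p of at most 0.1 after Benjamini-Hochberg adjustment over all 15453 genes. Of the 9906 genes with a mean of at least 50, 5 met that limit (0.0505%). None of the 9 met it in edgeR either, or in DESeq2, where 121 of the 9906 did (1.22%). The median log2 difference was 0.038 over the 8 genes and 0.0086 over the 9906.

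**Figure D1:**
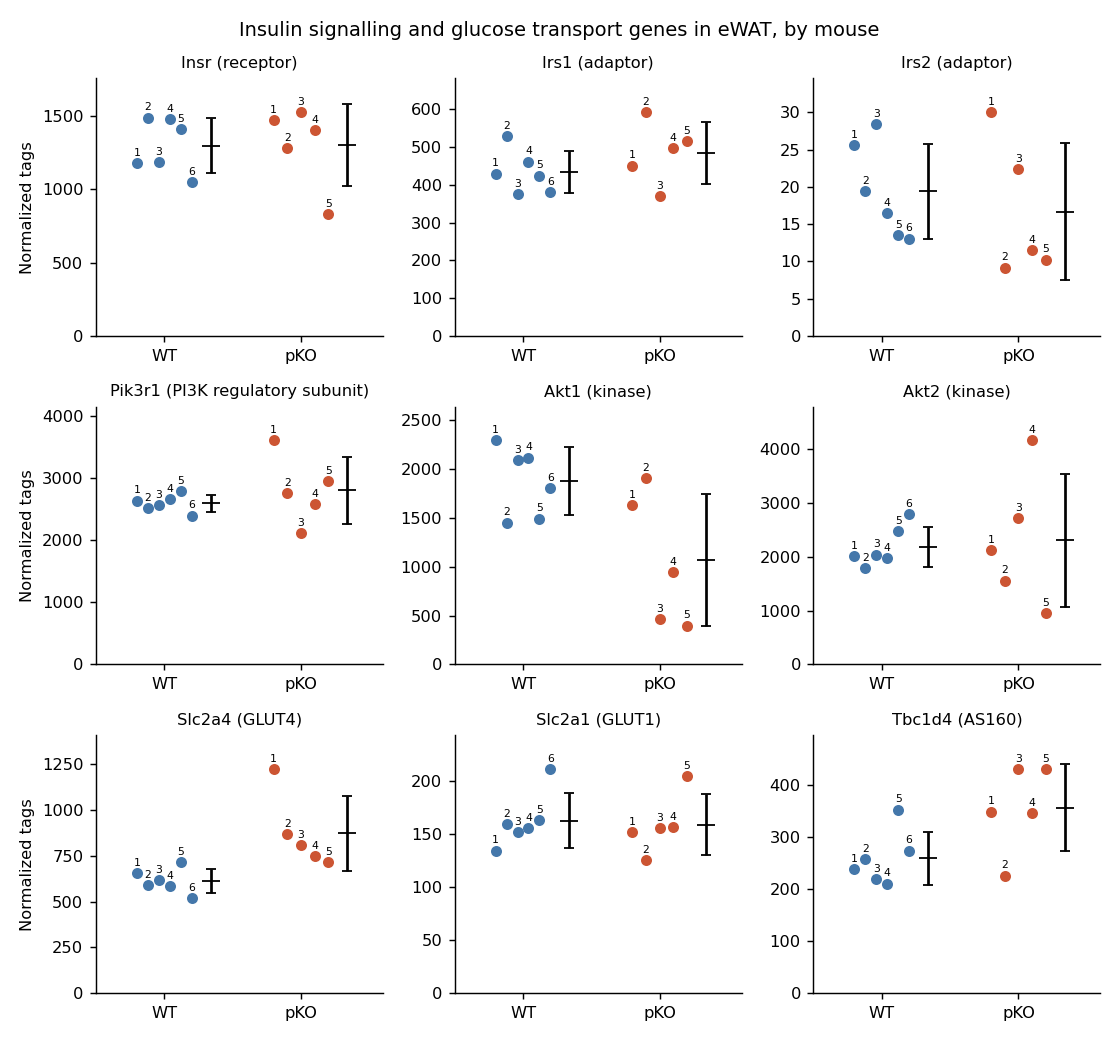
Normalized tags of the 9 genes (vertical axes from 0, a different scale in each panel) in 6 WT mice (blue) and 5 pKO mice (red). Each point is a mouse with its replicate number above it, and the bar beside the points is the mean with its SD. Slc2a4 was at least 717 in each pKO mouse and at most 714 in WT, and Akt1 in 3 pKO mice was below the lowest WT mouse.

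Slc2a4 encodes GLUT4, the transporter that insulin moves to the adipocyte surface (ENSMUSG00000018566.14, chromosome 11 from 69942539 to 69948188). In the 6 WT mice it ran from 519 to 714 normalized tags with a median of 604. The 5 pKO mice had 1225, 870, 809, 748 and 717. Each pKO mouse was thus above each WT mouse, although the lowest pKO mouse exceeded the highest WT mouse by less than the SD of either genotype. Ranges that did not overlap with pKO above WT were found in 71 of 9906 genes (0.717%), and in either direction in 142 (1.43%). The means were 613 ± 66.6 (SD, n = 6) and 874 ± 205 (SD, n = 5), a ratio of 1.42. The log2 difference was 0.49 (SE 0.15, 95% interval 0.17 to 0.81; limma p = 0.0055, adjusted p = 0.37; exact permutation test, two-sided, p = 0.0043, where 6 mice against 5 allow no p below 0.0022).

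The adipocyte markers, genes of the cells in which insulin moves GLUT4, were counted as higher in pKO mice for 3 of 14 genes (Pnpla2, Adrb3 and Cebpa) and as lower for none. Over all genes, 4.85% were counted as higher and 5.77% as lower. The mean log2 level of the 14 was 14.30 in WT and 14.46 in pKO mice (difference 0.17, exact permutation test p = 0.14). Taken relative to that mean in the same mouse, Slc2a4 differed by 0.32 on the log2 scale (exact permutation test, p = 0.14), and the genotypes overlapped. The same calculation, chosen after seeing the data, gave 0.28 for Tbc1d4 (p = 0.076) and −1.23 for Akt1 (p = 0.041) by the exact permutation test. Against 0.49 and 0.45 as levels per library, the differences in Slc2a4 and Tbc1d4 relative to the adipocyte markers were smaller and did not pass. Whether the change in estimate exceeded its error was not tested, and the 14 markers include the 3 counted as higher.

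Slc2a1, which encodes GLUT1, was the other transporter of the set. It ranged from 134 to 211 normalized tags in WT mice (median 157) and was 152, 125, 156, 156 and 205 in the pKO mice. The ranges lay over each other almost entirely. The log2 difference was −0.038 (SE 0.16, 95% interval −0.38 to 0.30; limma p = 0.81, adjusted p = 0.96; exact permutation p = 0.74), which leaves room for a level 0.770 to 1.23 times that of WT mice. The ratio of Slc2a4 to Slc2a1 within a mouse, which no scaling of the library affects, was 3.88 ± 0.820 in the WT mice (SD, n = 6) and 5.70 ± 1.81 in the pKO mice (SD, n = 5). Its log2 difference of 0.53 did not pass (exact permutation test, p = 0.058, 0.15 after Benjamini-Hochberg adjustment over 3 ratios). Without WT replicate 1 it was 0.60 and without pKO replicate 5 it was 0.69, both at an unadjusted p of at most 0.05. Leaving out any other mouse gave an unadjusted p from 0.076 to 0.152 (exact permutation test).

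Tbc1d4 encodes AS160, the brake on GLUT4 vesicles that Akt lifts (ENSMUSG00000033083.16, chromosome 14 from 101442360 to 101609191). The WT mice ran from 211 to 353 normalized tags, with a median of 248. In pKO mice the values were 349, 226, 431, 347 and 431. Replicates 3 and 5 of the pKO mice were above all WT mice, and the other pKO mice lay within the WT range. The means were 259 ± 51.7 (SD, n = 6) and 357 ± 84.2 (SD, n = 5), with a log2 difference of 0.45 (SE 0.19, 95% interval 0.042 to 0.85; limma p = 0.033, adjusted p = 0.49; exact permutation p = 0.0498). Leaving out any of WT replicates 1, 3 and 4 or pKO replicates 3, 4 and 5 took it past 0.05, with p reaching 0.088, and a log2 difference of 0.37 to 0.45.

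Akt1 encodes a serine/threonine kinase better known for growth and survival than for glucose uptake (ENSMUSG00000001729.14, chromosome 12 from 112653821 to 112674884). WT mice had 1451 to 2291 normalized tags, with a median of 1947. The 5 pKO mice had 1628, 1902, 465, 947 and 397. Replicates 3, 4 and 5 of the pKO mice were below the lowest WT mouse, while replicates 1 and 2 were within the WT range, so the genotypes overlapped. The means were 1874 ± 349 (SD, n = 6) and 1068 ± 678 (SD, n = 5), a ratio of 0.570. The log2 difference was −1.06 (SE 0.36, 95% interval −1.84 to −0.28; limma p = 0.011, adjusted p = 0.40; exact permutation p = 0.028). On the recovered tag counts the difference was −0.82 in edgeR and −0.81 in DESeq2, nearer to the ratio of the means.

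Akt2, the isoform linked to glucose uptake, showed no such shift. It ranged from 1785 to 2800 normalized tags in WT mice (median 2030) and was 2125, 1557, 2719, 4164 and 959 in pKO mice. The pKO mice held both the highest and the lowest value of all 11. The log2 difference was −0.077 (SE 0.29, 95% interval −0.70 to 0.55; limma p = 0.80, adjusted p = 0.96; exact permutation p = 0.82), an interval that spans 0.614 to 1.46 times the WT level. Its sign turned to 0.074 in edgeR and to 0.20 without pKO replicate 5.

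The kinases shared a wide spread among the pKO mice. The coefficient of variation of Akt1 was 18.6% in WT and 63.5% in pKO mice, and that of Akt2 was 17.4% and 53.3%, against medians over the 9906 genes of 15.5% and 23.2%. In pKO mice Akt1 stood at the 97.6 percentile of the 9906 genes by this measure and Akt2 at the 94.9 percentile. The ratio of Akt2 to Akt1 lay between 0.881 and 1.66 in WT mice and was 1.30, 0.819, 5.85, 4.40 and 2.41 in pKO mice. Akt2 tags therefore outnumbered Akt1 tags in 3 of 6 WT and 4 of 5 pKO mice. The ratio averaged 1.21 ± 0.336 (SD, n = 6) and 2.96 ± 2.12 (SD, n = 5), a log2 difference of 0.98 that did not pass (exact permutation test, p = 0.097, adjusted over 3 ratios 0.15). Without pKO replicate 2 it was 1.36 at an unadjusted p of 0.014 (exact permutation test). Leaving out any other mouse gave an unadjusted p from 0.062 to 0.205 by the same test.

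**Figure D2:**
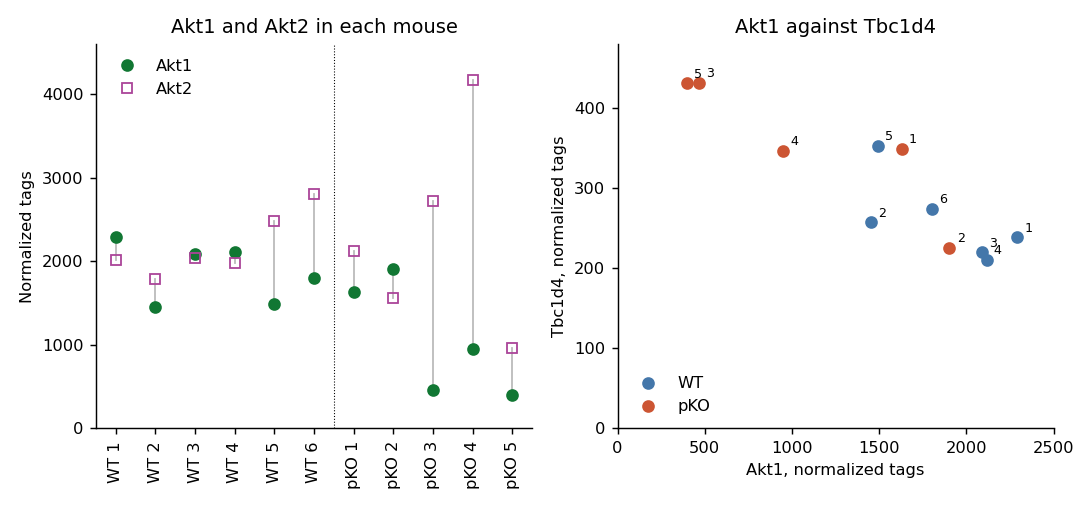
Left, normalized tags of Akt1 (filled circles) and Akt2 (open squares) in each mouse, joined by a line; right, Akt1 against Tbc1d4 in normalized tags, 1 point per mouse with its replicate number, WT blue and pKO red. The largest gaps between the kinases are those of pKO replicates 3 and 4, and the 2 mice with the lowest Akt1, pKO replicates 3 and 5, have 431 Tbc1d4 tags each.

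No gene of the upstream part of the pathway (Insr, Irs1, Irs2 and Pik3r1) passed the unadjusted limit between genotypes. Insr, the receptor itself, ranged from 1049 to 1489 normalized tags in WT mice (median 1297) and was 1472, 1282, 1527, 1402 and 830 in pKO mice. Only pKO replicate 5 was below the WT range and only pKO replicate 3 above it. The log2 difference was −0.014 (95% interval −0.37 to 0.34; limma p = 0.93, adjusted p = 0.99; exact permutation p = 0.96), and it was 0.14 without pKO replicate 5.

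Irs1, the main adaptor of adipocytes, ran from 376 to 529 normalized tags in WT mice (median 427) and was 451, 592, 370, 496 and 515 in pKO mice. The log2 difference of 0.15 (95% interval −0.15 to 0.46) did not pass (limma p = 0.30, adjusted p = 0.77; exact permutation p = 0.27). Irs2, the adaptor with the larger known role in liver and beta cells, was scarce, from 13.1 to 28.4 normalized tags in WT mice and from 9.17 to 30.0 in pKO mice. Its means of 19.4 ± 6.37 (SD, n = 6) and 16.7 ± 9.17 (SD, n = 5) rest on 8 to 35 tags in a library. The 95% interval of its log2 difference of −0.30 ran from −1.02 to 0.42 (exact permutation p = 0.40). Irs1 exceeded Irs2 by 24.3 ± 7.42 times in the WT mice (SD, n = 6) and 37.9 ± 21.7 times in the pKO mice (SD, n = 5), a difference that did not pass the exact permutation test (p = 0.32, also 0.32 adjusted over 3 ratios).

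Pik3r1, whose product p85α ties the adaptors to the lipid kinase, was the most abundant of the 9 genes and the steadiest among WT mice. It ranged from 2400 to 2793 normalized tags in WT mice (median 2606) and was 3611, 2757, 2121, 2581 and 2956 in pKO mice. The coefficient of variation was 5.21% in WT mice, which placed it at the 2.17 percentile of the 9906 genes, and 19.5% in pKO mice, at the 37.2 percentile. The log2 difference was 0.091 (95% interval −0.19 to 0.37; limma p = 0.50, adjusted p = 0.86; exact permutation p = 0.49).

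**Figure D3:**
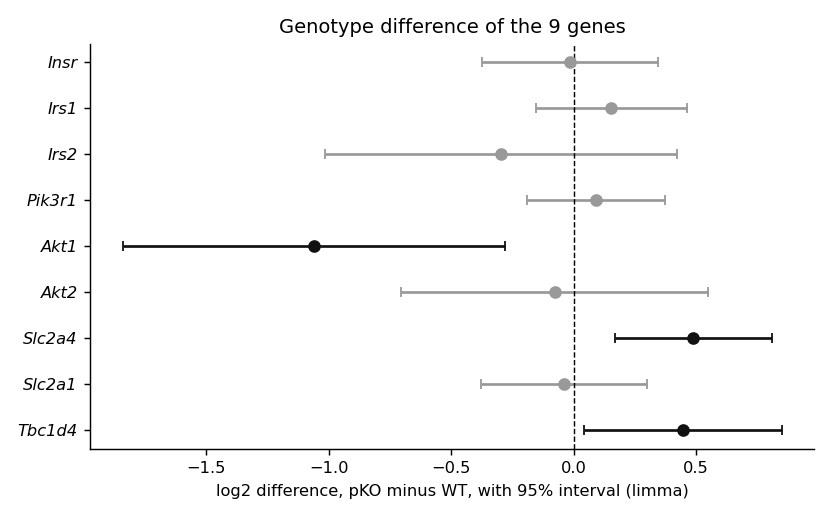
Log2 difference between genotypes (pKO minus WT, horizontal axis) of the 9 genes with its 95% interval from limma, over 6 WT and 5 pKO mice. Black marks genes at an unadjusted p of at most 0.05 (Akt1, Slc2a4 and Tbc1d4) and grey the others; the interval of Irs2 rests on few tags.

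As levels, the 9 genes fell in the WT mice in the order Pik3r1, Akt2, Akt1, Insr, Slc2a4, Irs1, Tbc1d4, Slc2a1 and Irs2, from a mean of 2597 to 19.4 normalized tags. Of the neighbours in this order, only Insr and Slc2a4, Irs1 and Tbc1d4, and Slc2a1 and Irs2 had ranges that did not overlap among WT mice, while Slc2a4 was above Irs1 and Tbc1d4 above Slc2a1 in 6 of 6 WT mice with ranges that overlapped. Pik3r1 was above Akt2 in 5 of 6 WT mice, Akt2 above Akt1 in 3 and Akt1 above Insr in 5, so the order of these neighbours varied among mice. In pKO mice, Slc2a4 was clear of Irs1, Tbc1d4 of Slc2a1 and Slc2a1 of Irs2. Insr had a higher mean (1303) than Akt1 (1068) in pKO mice, and was above Akt1 in 3 of 5 of them against 1 of 6 WT mice.

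Across mice, the 36 pairs of the 9 genes were compared on deviations from the genotype mean of log2(value + 1), with every arrangement of the mice within genotypes. By Pearson r the strongest relation was between Akt1 and Tbc1d4, at −0.77 (exact permutation p = 0.0031, adjusted over 36 pairs 0.11) and a Spearman rho of −0.80 (exact permutation p = 0.0061, adjusted 0.11) over 11 mice. Without pKO replicates 3 and 5, the mice farthest from the median of Akt1, r was −0.70. Akt1 and Slc2a1 had an r of −0.64 (exact permutation p = 0.022, adjusted 0.39) and a rho of −0.75 (exact permutation p = 0.0091, adjusted 0.11), and r was −0.55 without the same mice. By rank, Slc2a1 and Tbc1d4 had the largest coefficient, a rho of 0.81 (exact permutation p = 0.0069, adjusted 0.11), with an r of 0.63 (exact permutation p = 0.065, adjusted 0.75) that was 0.74 without WT replicate 6 and pKO replicate 5. Irs1 and Akt2 had a rho of −0.72 (exact permutation p = 0.033, adjusted 0.30) and an r of −0.44 (exact permutation p = 0.27, adjusted 0.75), which was −0.31 without pKO replicates 2 and 3. No other pair had an unadjusted p of at most 0.05 for r or rho, and no pair passed after adjustment.

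For the 4 most abundant of the 9 genes, the 3 genes with the most similar deviations were sought among 9898 others with a mean of at least 50, as a description over 11 mice. Those nearest to Akt1 were Eln, which encodes elastin (r = 0.98), the Golgi tethering gene Cog3 (0.97) and the ribosomal protein gene Rpl39 (0.96). Eln ran from 436 to 1092 normalized tags in WT mice and from 97.2 to 1900 in pKO mice, and Rpl39 from 4661 to 8068 and from 1165 to 10836, so both shared the wide spread of Akt1 among pKO mice. Nearest to Akt2 were Nkain4 (0.97), the Polycomb gene Cbx7 (0.95) and Smoc1 (0.93). Pik3r1 went with Chuk, which encodes an IκB kinase (0.95), the tetraspanin gene Cd63 (0.94) and Thoc1 (0.92), and Insr with Rab34 (0.97), Zfp667 (0.96) and Wdr55 (0.93). The points share library and size factor.

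Beyond the 9 genes, 145 of 151 other genes of the pathway were in the files and 126 had a mean of at least 50. Of these, 5 were higher and 5 lower in pKO mice at an unadjusted p of at most 0.05 (7.94%, below the 10.6% of all genes), and none at an adjusted p of at most 0.1. The unadjusted limma p of the 10 genes ran from 0.0015 to 0.048, the adjusted p from 0.28 to 0.52 and the exact permutation p from 0.0022 to 0.067. None of the 22 receptor-proximal genes passed. The median log2 difference of the 22 was −0.0057.

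Among 25 genes that attenuate the signal, 1 was higher and 2 were lower in pKO mice (12.0%, against 10.6% of all genes). Socs3, a cytokine-induced inhibitor that binds the insulin receptor, was at 97.2 to 153 normalized tags in WT and at 50.3 to 96.2 in pKO mice. Its ranges did not overlap, as in 71 of 9906 genes that were lower in pKO mice (0.717%). The gap between the ranges was about the value of 1 tag, and whether it held under another scaling was not tested. The log2 difference was −0.76 (SE 0.19, limma adjusted p = 0.28, exact permutation p = 0.0022, the smallest that 11 mice allow). Phlpp1, a phosphatase that acts on Akt, differed by −0.80 and was as variable among pKO mice (46.8 to 201) as Akt1, with an exact permutation p of 0.067. Trib1, a pseudokinase, differed by 0.34. The most abundant of the list was Ppp2ca, the catalytic subunit of protein phosphatase 2A, at 1774 ± 135 in the WT mice (SD, n = 6) and 1987 ± 330 in the pKO mice (SD, n = 5).

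Of 22 genes downstream of Akt, 1 was higher and 1 lower in pKO mice (9.09%, against 10.6% of all genes). Prkci, an atypical protein kinase C, was higher by 0.39 and Mtor, the growth kinase, differed by −0.41. Rheb, the most abundant, had 5063 ± 443 in the WT mice (SD, n = 6) and 4674 ± 469 in the pKO mice (SD, n = 5). Of 45 genes of GLUT4 vesicle traffic, 2 were higher and none lower in pKO mice (4.44%, against 10.6% of all genes). These were Rab14, a Rab on which AS160 acts, at 3107 ± 838 (SD, n = 6) and 4517 ± 729 (SD, n = 5) with a log2 difference of 0.58 (SE 0.21; limma adjusted p = 0.43; exact permutation p = 0.015), and Ywhab, a 14-3-3 protein, which differed by 0.32. Rac1 was the most abundant of this list, with 11003 ± 1366 in the WT mice (SD, n = 6) and 10165 ± 2225 in the pKO mice (SD, n = 5).

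Among 12 genes of other routes of glucose entry, 1 was higher and 2 were lower in pKO mice, 3 of 12 against 10.6% of all genes. Slc2a13, a transporter of myo-inositol, was at 99.2 to 165.6 normalized tags in WT and at 166.2 to 294 in pKO mice. These ranges did not overlap, as in 0.717% of all genes with pKO above WT. The gap between them was smaller than the value of 1 tag, and whether it held under another scaling was not tested. The log2 difference was 0.58 (SE 0.20, limma adjusted p = 0.41, exact permutation p = 0.0087). Hk3, a hexokinase found mainly in myeloid cells, differed by −0.63, and Slc2a10, which encodes GLUT10, by −0.56. Txnip, an arrestin-like inhibitor of glucose uptake, was the most abundant at 1290 ± 218 in the WT mice (SD, n = 6) and 1711 ± 709 in the pKO mice (SD, n = 5).

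**Figure D4:**
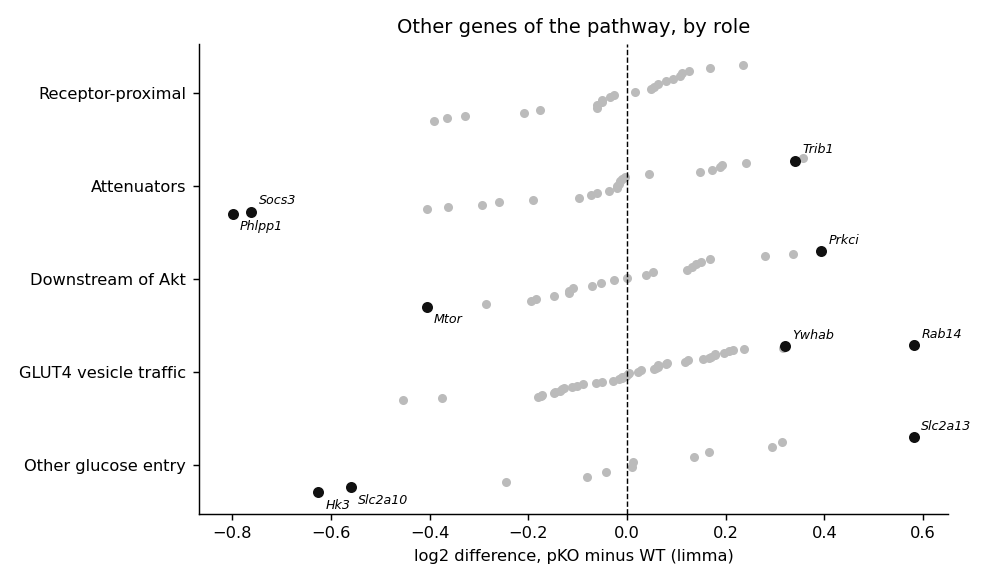
Log2 difference between genotypes (pKO minus WT, horizontal axis, limma) of the other pathway genes with a mean of at least 50, grouped by role and sorted within each group. Black points with names are the 10 genes at an unadjusted p of at most 0.05; the receptor-proximal group has none.

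Some markers of other cells also passed the unadjusted limit, which over all genes 4.85% passed as higher and 5.77% as lower in pKO mice. Of 11 macrophage markers with a mean of at least 50, 4 were lower and none higher in pKO mice (Itgam, Trem2, Itgax and Cd14). All 12 macrophage markers measured summed to 6113 to 9665 in WT and 5728 to 7971 in pKO mice. Of 6 mesothelial markers with that mean, 3 were higher (Krt19, Upk1b and Msln). All 8 mesothelial markers measured summed to 1188 to 1625 in WT and 1445 to 2903 in pKO mice. Of 10 fibroblast and progenitor markers, 2 were higher (Dpp4 and Dcn), with sums of 60956 to 74855 and 73973 to 82081, and of 9 endothelial markers 1 was (Kdr). Of 3 erythroid markers, 2 were higher, and none of 2 lymphocyte markers passed. No marker in the files was at 0 in all mice. The part of these cell types in the differences of Akt1, Socs3, Hk3 and the other genes was not tested.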

How the data were processed

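The authors cut cDNA with NlaIII, sequenced the tags on a SOLiD instrument and mapped them with SOLiD SAGE software that they had altered for stricter mapping. Per the submitters' processing notes the build was mm10 and edgeR 3.2.3 was among the tools. The deposited signal was tag counts divided by a size factor, 1 value per gene and mouse. In each library 100% of values were whole multiples of the value of 1 tag (tolerance 0.01), so counts were recovered for edgeR 4.0.16, whose quasi-likelihood test called 995 of 9906 genes at the unadjusted limit below and 5 at the adjusted limit, and for DESeq2 1.42.0. The main test was limma 3.58.1 in R 4.3.3 (mean-variance trend) on log2(value + 1) of all 15453 genes, with genotype as the only term and Benjamini-Hochberg adjustment, which understates changes of genes with few tags. Calls needed an unadjusted p up to 0.05 or an adjusted p up to 0.1, with 50 or more normalized tags on average in a genotype. Single values were also tested over all 462 splits of the 11 mice, two-sided (Python 3.11.15). The fit was tested on simulated data.

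Mice were grouped by the genotype label, and no batch is given for them. Libraries held a median of 12592059 tags in WT and 12621798 in pKO mice, which limits the precision of genes with few tags. Mice with the same number in the titles did not deviate together (mean correlation −0.024 against 0.0046 for other pairs), so no pairing was used. The 9 genes and all lists were chosen with earlier results of these data known. Named were the 9 genes, Mest, up to 4 called genes and the most abundant gene of each pathway list, the called markers, and the 3 genes most like each of the 4 most abundant of the 9. A gene that this rule names is not reported here. Alternatives were the other tools, total-count and TMM scaling, pseudocounts of 0.5 and 10, filters on low values, robust fitting, no trend, the replicate number as a block and each mouse left out.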

Additional observations from a re-analysis of the deposited data

Results flagged for a closer look

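Slc2a1 in WT replicate 6, at 211 normalized tags, stood apart from the other WT mice, which lay between 134 and 163, by a gap larger than Dixon's limit for 6 samples. It was the only case among 24 groups examined, where chance gives about 1 in 20. Without this mouse, the log2 difference of Slc2a1 between genotypes was 0.040 in place of −0.038.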

How the results depend on the processing

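The count of the 9 genes at an unadjusted p of at most 0.05 was 2 or 3, and that at an adjusted p of at most 0.1 was 0, in all 22 alternatives. Akt1 (−1.34 to −0.77) and Slc2a4 (0.36 to 0.55) kept p at or below 0.05 in the 22, with adjusted p from 0.13 to 0.66 and from 0.13 to 0.61. Tbc1d4 lost it in 7 (adjusted p 0.15 to 0.72), and relative to adipocyte markers Slc2a4 and Tbc1d4 lost it. Signs turned only for genes without a call. Insr was 0.00059 in edgeR, 0.0055 in DESeq2 and −0.080 to 0.14 with a mouse left out. Akt2 was 0.074 in edgeR, 0.078 in DESeq2 and −0.33 to 0.20 with a mouse left out. Pik3r1 was −0.0056 to 0.19 and Slc2a1 −0.13 to 0.043 with a mouse left out. Blocking by replicate number, a fit without WT replicate 6, Slc2a1 was 0.040, 6 related pathway genes passed in place of 10, and 1 of all genes passed at an adjusted p of at most 0.1 in place of 5; no call among the 9 genes changed. That last count was 121 in DESeq2, 9 among genes with a mean of 50, 11 among genes with 10 in every library, and 3 to 91 with a mouse left out, the 91 without pKO replicate 2. Related genes passing were 5 to 12 with a mouse left out, and all genes at the unadjusted limit 783 to 1479. The ratios ranged with a mouse left out from 0.65 to 1.36 (Akt2 to Akt1), 0.39 to 0.69 (Slc2a4 to Slc2a1) and 0.23 to 0.75 (Irs1 to Irs2). Irs2 could not be fitted under the filters on low values. The causes were not tested.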
